A study of Mus musculus with 10 samples.

Results

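The genes described here encode the machinery that makes and exports microRNAs: Drosha and Dgcr8, Xpo5, Ran and Rcc1, Dicer1 and Tarbp2, and Ago1, Ago2 and Tnrc6a. They were chosen by name from the raw count table, in which all 10 were found among 25078 genes. RNA was sequenced from LSK cells (lineage-negative, Sca-1+, Kit+ bone marrow cells, the fraction that holds hematopoietic stem and early progenitor cells) of 10 mice, a library from each, of which 5 were CM and 5 were CM/miR-126Δ/Δ. CM mice carried the Cbfb 56M/+ knock-in, from which Cre forms the leukemic fusion gene Cbfb-MYH11 of inv(16) acute myeloid leukemia, and CM/miR-126Δ/Δ mice carried in addition floxed alleles of miR-126 that the same Cre removes. All 10 mice carried Mx1-Cre, which is switched on by interferon in blood cells and also in other tissues. All were given poly(I:C), an inducer of interferon, at 6 to 8 weeks of age and were sampled at a preleukemic stage 6 weeks after induction. Both groups therefore expressed the fusion gene, and the comparison is of miR-126 loss on that background, with no mice free of the fusion among these libraries.

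In canonical microRNA biogenesis, DROSHA and its RNA-binding partner DGCR8 cut a hairpin precursor out of the primary transcript in the nucleus. XPO5 (exportin-5) carries the precursor through the nuclear pore when it is bound to RAN in its GTP form, and RCC1 is the nucleotide exchange factor that loads RAN with GTP inside the nucleus. In the cytoplasm DICER1, with its partner TARBP2, trims the hairpin to a duplex, a strand of which enters an Argonaute protein such as AGO1 or AGO2, and TNRC6A links Argonaute to the enzymes that shorten and decay the bound mRNA. MiR-126, which is abundant in hematopoietic stem cells, is itself a product of these steps. The study addressed how the fusion protein raises mature miR-126. It described higher transcription of miR-126 and its host gene Egfl7, with GATA2 and RUNX1. It also described processing through HDAC8 and the RAN, XPO5 and RCC1 export complex, mostly in a myeloblast cell line and in part in bone marrow of CM mice. The libraries allow the reverse question to be asked at the mRNA level, whether the machinery differed once miR-126 was deleted.

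The deleted microRNA and its precursor are shown first because they are the only engineered difference between the genotypes. The hairpin lies at chr2:26591357-26591429 (plus strand, GRCm38.p6, RefSeq), with the mature arm in the table in capitals, and in the mature sequence the capitals mark the seed, bases 2 to 8.
Mir126a hairpin: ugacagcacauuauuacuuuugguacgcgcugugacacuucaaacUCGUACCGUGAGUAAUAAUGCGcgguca
mmu-miR-126a-3p: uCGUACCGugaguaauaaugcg
Over this hairpin the CM libraries 1 to 5 held 4, 5, 0, 2 and 3 counts, whereas all 5 libraries of deleted mice held 0 (exact permutation test of counts scaled to library size, two-sided, n = 5 each, p = 0.0476). Counts this low do not rank the CM mice, whose libraries also differed in depth. Totals were 33202086 and 31257659 counts in CM mice 1 and 2 and 23649233 in CM mouse 3. CM mouse 3 could not be told from the deleted mice at this depth.

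Sites for the seed of miR-126a-3p were then looked for in the 3′ untranslated regions of the members, in the GENCODE transcripts of the same assembly. The letters searched, on the transcript strand, were GGTACG (6 bases) and CGGTACG (7 bases). All 10 members had at least 1 annotated 3′ untranslated region, the longest of each gene spanning 28 to 5283 bases, and 0 of 10 held the 6-base site. Among 19915 genes with such a region, 3.32% held the 6-base site and 0.256% the 7-base site. The absence of these letters describes the annotated windows only.

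Totals per library ran from 23649233 to 33202086 counts, with a median of 29763105 in CM and 24908932 in the deleted mice (exact permutation test, n = 5 each, p = 0.0476). The LSK identity was checked first. Kit stood at 135 to 193 RPKM and Ly6a, which encodes Sca-1, at 43.5 to 70.2 RPKM over the 10 libraries. The summed level of 8 stem and progenitor markers was 879 to 1043 RPKM in CM and 854 to 1018 RPKM in CM/miR-126Δ/Δ mice, most of it from Cd34 and Kit. Of these 8 genes, the stem cell transcription factors Hlf (92.8 to 117 RPKM in CM, 106 to 144 after deletion, log2 fold change 0.31, edgeR unadjusted p 0.0080, adjusted p = 0.661) and Meis1 (84.4 to 105 and 99.2 to 119 RPKM, 0.19, unadjusted 0.026, adjusted p = 0.746) had higher estimates after deletion, neither past the adjusted threshold, and their part in the results below was not tested. Sums over 3 T cell markers stayed at 1.84 to 4.42 and 1.89 to 3.56 RPKM, and over 2 B cell markers at 0.281 to 1.13 and 0.125 to 1.41 RPKM. Granulocyte and monocyte markers (4 genes) reached 34.6 to 116 RPKM in CM and 36.0 to 221 RPKM in CM/miR-126Δ/Δ mice, with S100a8 alone at 1.22 to 184 RPKM. S100a8 and Ly6g had higher estimates after deletion (log2 fold change 0.92 and 0.82, edgeR unadjusted p 0.43 and 0.48). Itgam and Csf1r had lower ones (−0.35 and −0.22, edgeR unadjusted p 0.032 and 0.353, adjusted p = 0.746 and 0.812). The part of these 4 genes in the results below was not tested. Erythroid markers (3 genes) summed to 3.79 to 27.1 and 6.70 to 16.2 RPKM, with Hbb-bt listed at 0 counts in every library, and endothelial markers (3 genes) to 9.78 to 11.9 and 7.99 to 12.7 RPKM. Most of the endothelial sum came from Emcn (7.64 to 12.2 RPKM), with Cdh5 at no more than 0.316 and Kdr at no more than 0.331 RPKM.

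All 10 members were transcribed in every mouse. RPKM, which divides counts by exon length and scaled library size, allows levels of different genes to be set side by side. By their mean over 10 mice, Ran was the most abundant at 49.8 RPKM (percentile 91.2 among 11682 genes with a mean of at least 1 RPKM), followed by Ago1 at 35.5, Rcc1 at 31.4, Xpo5 at 28.1, Ago2 at 25.5, Drosha at 22.5, Tnrc6a at 19.1, Dgcr8 at 18.6 and Dicer1 at 18.2 RPKM (percentile 65.9). Tarbp2, at 2.99 RPKM (percentile 15.4), lay far below the rest. Neighbours in this order were often not separated beyond the spread between mice. Ran exceeded Ago1 in 10 of 10 libraries, Drosha exceeded Tnrc6a in 10 of 10, and Dicer1 exceeded Tarbp2 in 10 of 10 with 6.09 times its level. Ago1 was above Rcc1 in only 7 of 10 libraries, Rcc1 above Xpo5 in 7, Tnrc6a above Dgcr8 in 6 and Dgcr8 above Dicer1 in 6, so that these places in the order are not firm. Xpo5 was above Ago2, and Ago2 above Drosha, in 9 of 10 each. Drosha, the nuclear nuclease, was above both its partner Dgcr8 and the cytoplasmic nuclease Dicer1 in 10 of 10 libraries, by less than the distance between Dicer1 and its own partner Tarbp2. The plot of levels by mouse gives every value.

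**Figure D1:**
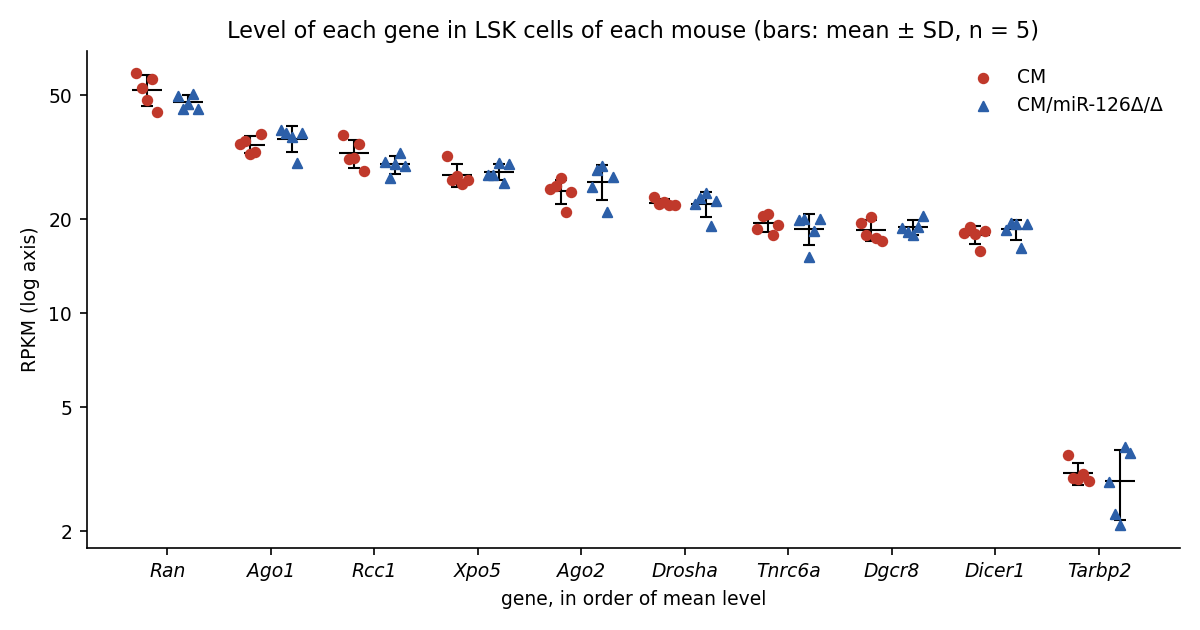
Level of each of the 10 genes in LSK cells of each mouse, in RPKM on a log axis, with genes ordered by mean level and points numbered left to right by mouse (CM circles, CM/miR-126Δ/Δ triangles). Horizontal bars with whiskers are mean ± SD of 5 mice, and in every gene the triangles lie within or across the range of the circles, with Tarbp2 apart from the rest at 2.09 to 3.72 RPKM.

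Deletion of miR-126 on the CM background was not accompanied by a detectable change of any member. Of the 10 genes, 5 had a higher and 5 a lower estimate after deletion. By the study's cutoffs (p of 0.01 or less, at least 1.5-fold, at least 1 RPKM) 0 of 10 members were called, beside 0.288% of all 18747 genes tested. At an adjusted p under 0.05 in edgeR 0 of 10 were called, beside 0.0107% of all genes. At an unadjusted p under 0.05, edgeR and DESeq2 each gave 0 of 10, beside 6.61% of all genes in edgeR and 1136 of 18747 in DESeq2. The ranges of the genotypes overlapped in all 10 members, while they did not in 1.1% of all genes. The median log2 fold change of the members (CM/miR-126Δ/Δ against CM) was 0.0084, beside −0.019 over the 11682 expressed genes, and their median absolute log2 fold change was 0.062, beside 0.076. The lowest adjusted p among the members was 0.765. Apart from the mice numbered 4, the libraries of the genotypes also differed in a trend with exon length, given with the variation between mice. In sorted cells taken in bulk, fewer cells of a type and less RNA per cell cannot be told apart.

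How large a difference the data could still hold is given by the 95% intervals. All 10 intervals lay inside a 1.5-fold change in either direction, and the widest bound among 9 of them was 1.23-fold, for Ago2. The widest interval was that of Tarbp2, counted at 86 to 207 reads per library against 1566 to 8446 for the others, whose interval reached a 1.36-fold lower level. Differences within these intervals were not detectable with 5 mice per genotype. The plot of genotype differences shows these intervals by step of the pathway.

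**Figure D2:**
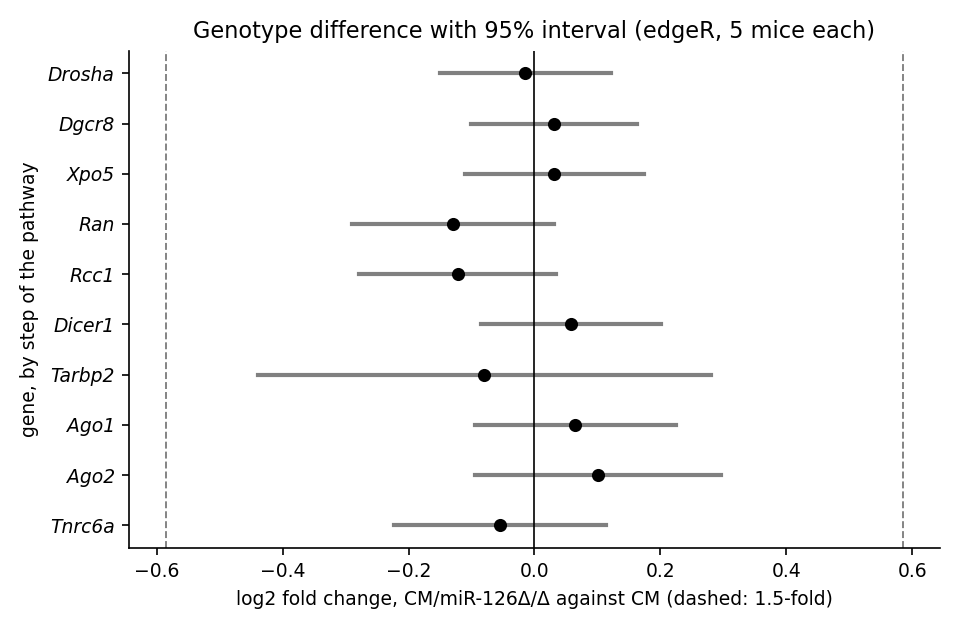
Log2 fold change of each gene in CM/miR-126Δ/Δ against CM mice (points, edgeR, 5 mice per genotype) with its 95% interval (grey lines), ordered from nuclear cleavage to silencing. Dashed lines mark a 1.5-fold change, the vertical line no change, and every interval crosses 0 and stays inside the dashed lines.

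In the nuclear cleavage step, Drosha (chr15:12824815-12935291, plus strand, mm10), the nuclease, was at 23.6, 22.4, 22.8, 22.2 and 22.2 RPKM in CM mice 1 to 5 and at 22.4, 23.4, 24.4, 19.0 and 22.9 RPKM in CM/miR-126Δ/Δ mice 1 to 5. The CM values were the most even of any member, with a coefficient of variation of 2.64%, and CM/miR-126Δ/Δ mouse 4 lay below all of them. The means were 22.6 ± 0.598 and 22.4 ± 2.04 RPKM (SD, n = 5 each), and the log2 fold change was −0.015 (SE 0.063, 95% interval −0.15 to 0.12, edgeR adjusted p = 0.976). Its sign turned positive without CM/miR-126Δ/Δ mouse 4, at 0.053, and also without CM mouse 1 (0.013) or CM mouse 3 (0.00046). Dgcr8 (chr16:18253965-18289168, minus strand) was at 19.5, 17.8, 20.4, 17.4 and 17.1 RPKM in CM and at 18.8, 18.3, 17.8, 18.9 and 20.4 RPKM in CM/miR-126Δ/Δ mice. The top values of the genotypes coincided, and the means, 18.4 ± 1.45 and 18.8 ± 0.995 RPKM, differed by 0.031 on the log2 scale (SE 0.061, −0.10 to 0.16, adjusted p = 0.921). The ratio of Dgcr8 to Drosha within a library was 0.814 ± 0.051 in CM and 0.848 ± 0.103 in the deleted mice (exact permutation test of log2 ratios, p = 0.579, adjusted over 6 ratios 0.857).

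The export complex was the group in which the estimates departed most from 0, still within the spread between mice. Ran (chr5:129020156-129024321, plus strand), the small GTPase, was at 58.8, 52.6, 48.1, 56.4 and 44.2 RPKM in CM and at 49.8, 45.3, 46.9, 50.6 and 45.2 RPKM in CM/miR-126Δ/Δ mice. CM mice 1, 2 and 4 lay above every CM/miR-126Δ/Δ mouse, but CM mouse 5 was the lowest of all 10. The means were 52.0 ± 5.94 and 47.6 ± 2.50 RPKM, a difference of −8.58% (95% interval −18.2% to 2.17%) and a log2 fold change of −0.13 (SE 0.075, adjusted p = 0.765). Rasl2-9, an expressed retrocopy of Ran, held 6 to 29 counts per library against 2467 to 4443 for Ran, and reads that fit both copies could have been split or dropped by the counting.

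Rcc1 (chr4:132331919-132345750, minus strand), the exchange factor, followed a similar order of mice. It was at 37.2, 31.3, 31.4, 34.9 and 28.6 RPKM in CM and at 30.6, 27.2, 30.03, 32.8 and 29.7 RPKM in CM/miR-126Δ/Δ mice, with CM mice 1 and 4 at the top. The means were 32.7 ± 3.38 and 30.05 ± 2.00 RPKM, a difference of −8.08% (−17.5% to 2.44%) and a log2 fold change of −0.12 (SE 0.073, adjusted p = 0.765). Xpo5 (chr17:46202811-46243598, plus strand), the carrier, did not share this order. It was at 31.9, 26.7, 27.6, 26.1 and 26.7 RPKM in CM and at 27.7, 27.8, 30.3, 26.1 and 30.005 RPKM in CM/miR-126Δ/Δ mice, with CM mouse 1 high among the CM mice. The log2 fold change was 0.031 (SE 0.066, −0.11 to 0.17, adjusted p = 0.931), on means of 27.8 ± 2.34 and 28.4 ± 1.73 RPKM.

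Ratios within a library remove a scale that all genes of that library share. They do not remove the trend with exon length where the genes of a ratio differ in length, as Xpo5 and Ran or Tarbp2 and Dicer1 do. The part of that trend in the ratios was not tested. There was 0.629 ± 0.023 RPKM of Rcc1 per RPKM of Ran in CM and 0.632 ± 0.024 in CM/miR-126Δ/Δ mice, the tightest of the 6 ratios in CM mice (exact permutation test, p = 0.857, adjusted 0.857). Xpo5 per Ran was 0.538 ± 0.055 in CM and 0.599 ± 0.061 in CM/miR-126Δ/Δ mice, a log2 difference of 0.16 that did not exceed the spread (exact permutation test, p = 0.143, adjusted 0.81). The values by mouse were 0.542, 0.507, 0.574, 0.462 and 0.603 in CM and 0.556, 0.614, 0.645, 0.517 and 0.664 in CM/miR-126Δ/Δ mice, so that the groups overlapped over most of their range.

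For the dicing step, Dicer1 (chr12:104687742-104751952, minus strand) was at 18.1, 18.9, 18.0, 15.9 and 18.3 RPKM in CM and at 18.5, 19.5, 19.4, 16.2 and 19.3 RPKM in CM/miR-126Δ/Δ mice. Mouse 4 was the lowest of its genotype in both groups. The means were 17.8 ± 1.16 and 18.6 ± 1.37 RPKM and the log2 fold change 0.058 (SE 0.067, −0.085 to 0.20, adjusted p = 0.843). Tarbp2 (chr15:102518192-102523676, plus strand) was at 3.50, 2.95, 2.95, 3.06 and 2.90 RPKM in CM and at 2.88, 2.28, 2.09, 3.72 and 3.56 RPKM in CM/miR-126Δ/Δ mice. The CM/miR-126Δ/Δ mice split to both sides of the CM range, which gave Tarbp2 the largest coefficient of variation of any member in either genotype, 25.2%, against 8.04% in CM mice. Its log2 fold change was −0.080 (SE 0.17, −0.44 to 0.28, adjusted p = 0.930), on means of 3.07 ± 0.247 and 2.91 ± 0.733 RPKM, and its sign turned without CM/miR-126Δ/Δ mouse 3, at 0.017. Tarbp2 per Dicer1 was 0.173 ± 0.019 in CM and 0.159 ± 0.050 in the deleted mice (exact permutation test, p = 0.405, adjusted 0.81).

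Among the silencing effectors, Ago1 (chr4:126435013-126468583, minus strand) was at 35.0, 35.8, 32.5, 32.8 and 37.7 RPKM in CM and at 38.8, 37.9, 36.6, 30.4 and 38.0 RPKM in CM/miR-126Δ/Δ mice. The 4 CM/miR-126Δ/Δ mice other than mouse 4 lay above 4 of the 5 CM mice, and mouse 4 lay below all CM mice. The log2 fold change was 0.065 (SE 0.074, −0.095 to 0.22, adjusted p = 0.843) on means of 34.7 ± 2.14 and 36.3 ± 3.43 RPKM, and without CM/miR-126Δ/Δ mouse 4 it was 0.137, still not called. Ago2 (chr15:73101625-73184947, minus strand), the Argonaute that can cut its target, was at 25.0, 25.6, 27.1, 21.2 and 24.4 RPKM in CM and at 25.5, 28.7, 29.6, 21.1 and 27.3 RPKM in CM/miR-126Δ/Δ mice. Mouse 4 was again the lowest in both genotypes, and the log2 fold change of 0.10 (SE 0.091, −0.094 to 0.30, adjusted p = 0.765) was the highest of the 10, on means of 24.6 ± 2.18 and 26.4 ± 3.38 RPKM. Tnrc6a (chr7:123123885-123195296, plus strand) was at 18.6, 20.6, 20.8, 17.9 and 19.2 RPKM in CM and at 20.0, 20.0, 15.2, 18.3 and 20.0 RPKM in CM/miR-126Δ/Δ mice. Its means of 19.4 ± 1.26 and 18.7 ± 2.09 RPKM differed by −0.054 on the log2 scale (SE 0.079, −0.22 to 0.11, adjusted p = 0.884), a sign set by CM/miR-126Δ/Δ mouse 3, without which the value was 0.012. Ago1 stood at 1.42 ± 0.142 and 1.38 ± 0.109 times the level of Ago2 in CM and deleted mice (p = 0.722, adjusted 0.857, exact permutation test), and Tnrc6a at 0.790 ± 0.037 and 0.719 ± 0.133 times (p = 0.302, adjusted 0.81, same exact test). Without CM/miR-126Δ/Δ mouse 4 the difference in the latter ratio, −0.23 on the log2 scale, reached p = 0.0476 in the exact test, before adjustment.

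Some members varied together from mouse to mouse. Pairs of members were compared over the 10 mice on the log2 scale, 45 pairs in all, chosen after the values had been seen, with permutation p-values adjusted over the 45 by the Benjamini-Hochberg method. The median Pearson r was 0.115 and the range −0.647 (Tarbp2 with Ago2) to 0.929, and 3 pairs had an adjusted p under 0.05 for r. The share of such pairs among other expressed genes was not obtained, so this count is not shown to be particular to the members. Ran and Rcc1 were the closest, with r = 0.929 (permutation p = 0.00012, adjusted 0.0054) and Spearman's rho = 0.903 (p = 0.00091, adjusted 0.0205, permutation). After the 2 mice farthest from the median of Ran were left out, r was 0.780, and with each genotype centred on its own mean it was 0.909. The relation thus remained without those mice and without the genotype difference. Scaling by total counts alone gave an r of 0.943. The permutations of all pairs treat the 10 mice as independent. Deviations shared by mice of the same number, given in the closing section, were not removed, and their part in these correlations was not tested.

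Dicer1 and Ago2 had r = 0.927 (permutation p = 0.00061, adjusted 0.0137) and rho = 0.842 (p = 0.0036, adjusted 0.0546, permutation), 0.920 with each genotype centred, and 0.721 without both mice numbered 4, which are also those farthest from the median of Dicer1. Drosha and Ago2 had r = 0.769 (permutation p = 0.0022, adjusted 0.0328) and rho = 0.806 (p = 0.0073, adjusted 0.0827, permutation), falling to 0.544 without the 2 mice farthest in Drosha. By rho alone, Drosha and Xpo5 passed at 0.903 (permutation p = 0.00088, adjusted 0.0205), with r = 0.651 (adjusted 0.216) and 0.781 without the 2 mice farthest in Drosha. The mice numbered 4 stood apart in a property of the whole library. Across the 11682 expressed genes, the deviation of a library from the mean fell with exon length in CM mouse 4 (Spearman −0.539, across genes, which are not independent) and in CM/miR-126Δ/Δ mouse 4 (−0.430), while the other CM mice (1, 2, 3 and 5) were at −0.0807, −0.0042, 0.056 and −0.040 and the other CM/miR-126Δ/Δ mice (1, 2, 3 and 5) at 0.242, 0.387, 0.191 and 0.259. Apart from the mice numbered 4 the genotypes did not overlap in this trend, with long genes relatively higher after deletion, and over all 5 against 5 mice the means were −0.122 and 0.130 (exact permutation test, p = 0.214). Exons of Dicer1 and Ago2 sum to 9851 and 8031 bases and those of Ran and Rcc1 to 2288 and 2327 bases, and the part of this length trend in the shared variation was not tested. Nor was its part in the genotype estimates, which have the direction of the trend in Ran, Rcc1 and Tarbp2 (short, lower) and in Dicer1, Ago1 and Ago2 (long, higher) but not in Tnrc6a (8479 bases, lower). Without the mice numbered 4, Ran and Rcc1 had r = 0.916 over 8 mice. The map of deviations by mouse and the plot of both gene pairs show these patterns.

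**Figure D3:**
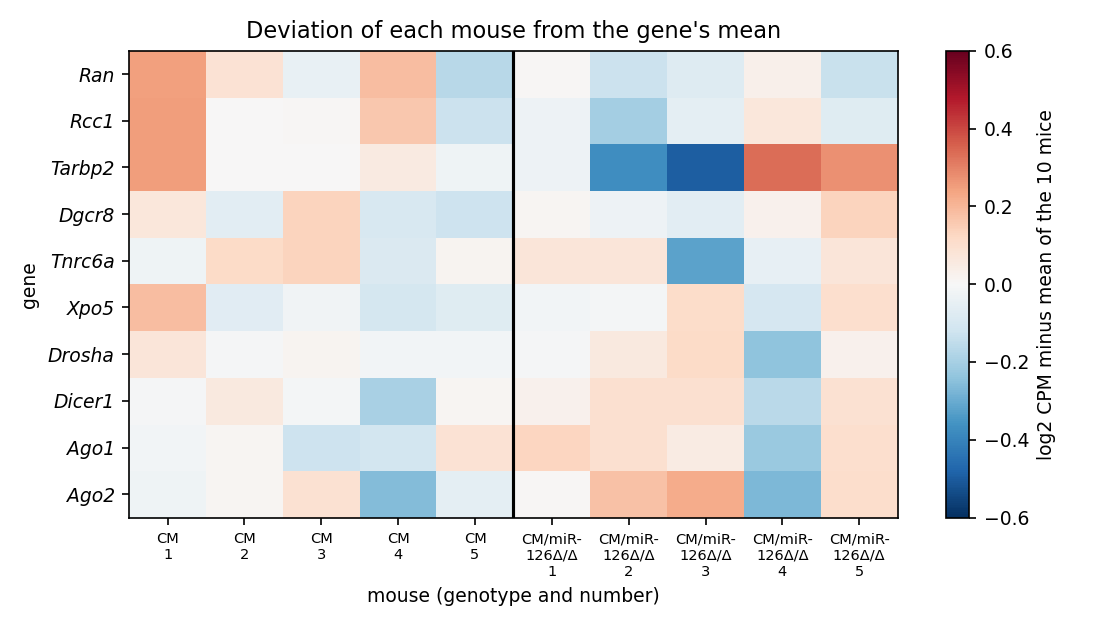
Deviation of each mouse from the mean of the 10 mice, in log2 CPM (counts scaled to library size), red higher and blue lower. Rows are genes and columns are mice, with CM left and CM/miR-126Δ/Δ right of the black line. Ran and Rcc1 have similar colours in most mice, and Dicer1, Ago1 and Ago2 are blue in the mice numbered 4 of both genotypes, with Ago2 at −0.26 and −0.27.

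**Figure D4:**
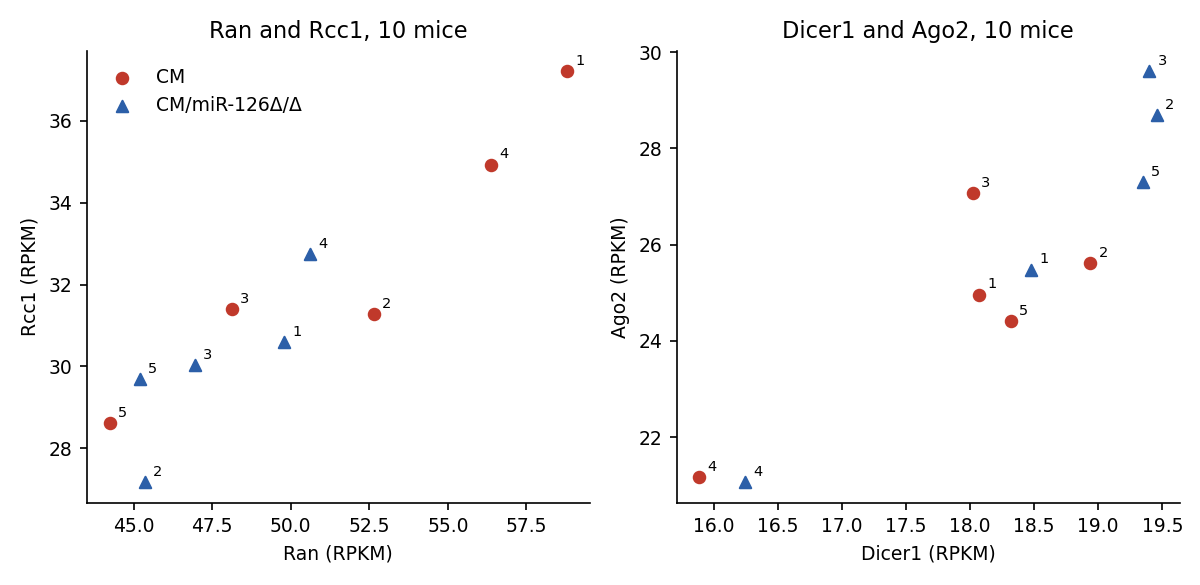
Levels in RPKM of Ran against Rcc1 (left) and of Dicer1 against Ago2 (right) in the 10 mice, with mouse numbers beside the points (CM circles, CM/miR-126Δ/Δ triangles). Circles and triangles lie along a common line for Ran and Rcc1 (r = 0.929 on log2 values), and both mice numbered 4 lie apart at the lower left for Dicer1 and Ago2.

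Because Ran and Rcc1 moved together across mice, their promoters are shown, from RefSeq on GRCm38.p6, as 300 bases around the annotated start on the strand of the gene. They lie at chr5:129019906-129020205 (plus strand) for Ran and chr4:132345701-132346000 (minus strand) for Rcc1, and the capitals in Ran mark the E-box CACGTG, a sequence bound by MYC and related factors.
Ran: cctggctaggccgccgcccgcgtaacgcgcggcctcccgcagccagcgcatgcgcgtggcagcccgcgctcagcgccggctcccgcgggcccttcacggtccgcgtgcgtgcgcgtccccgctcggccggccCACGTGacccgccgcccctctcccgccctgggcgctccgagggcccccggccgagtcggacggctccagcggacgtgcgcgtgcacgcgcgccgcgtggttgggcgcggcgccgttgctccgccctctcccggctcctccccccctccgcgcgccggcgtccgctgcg
Rcc1: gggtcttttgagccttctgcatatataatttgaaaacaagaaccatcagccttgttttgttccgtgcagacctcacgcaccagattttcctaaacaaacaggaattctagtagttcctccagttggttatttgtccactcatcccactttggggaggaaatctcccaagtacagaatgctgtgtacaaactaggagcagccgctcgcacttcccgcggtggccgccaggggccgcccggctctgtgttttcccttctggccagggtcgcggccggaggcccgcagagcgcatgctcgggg
The E-box of Ran began at position −118 relative to the start. The Ran window held 82% G and C and the Rcc1 window 54.3%, beside a median of 52.7% over all 32851 windows in the RefSeq table. CACGTG, which reads the same on both strands, was found in 1 of the 9 members with a window (Ran) and in 7.15% of all windows. GGCGGG, searched on both strands, was in 6 of 9 members and 35.3% of windows, and CCGGAA, on both strands, in 1 of 9 (Drosha) and 14.9%. The Rcc1 window held none of these letters, and Ago2 had no window in the table.

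The members also overlap other genes. Mir1306 lies inside Dgcr8 and Mir693 inside Xpo5, each on the strand of its host. Their hairpins are shown with the mature arms in capitals because reads of the host can overlap them. The Mir1306 hairpin (chr16:18284239-18284317, minus strand) falls within the Dgcr8 coding sequence. The Mir693 hairpin (chr17:46231531-46231619, plus strand) is absent from the annotated Xpo5 transcript and so is not exonic there.
Mir1306: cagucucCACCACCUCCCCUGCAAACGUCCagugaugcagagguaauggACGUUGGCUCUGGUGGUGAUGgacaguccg
Mir693: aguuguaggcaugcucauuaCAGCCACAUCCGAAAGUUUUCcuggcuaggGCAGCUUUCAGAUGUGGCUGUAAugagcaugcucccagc
Mir1306 was listed at 0 counts in every library, although Dgcr8, whose exon holds it, was at 1730 to 2721 counts per library. Any read over this hairpin also lies in the Dgcr8 exon, and the counting could have given it to neither gene. The 0 therefore sets no limit on Mir1306. Mir693 held 0, 1, 1, 0 and 0 counts in CM mice 1 to 5 and 5, 4, 2, 3 and 4 counts in CM/miR-126Δ/Δ mice 1 to 5. The groups did not overlap, at 2 counts in CM against 18 in CM/miR-126Δ/Δ mice, a ratio of 10.6 per total counts (exact 95% interval 2.54 to 94.2, counting error only). In edgeR the unadjusted p was 0.00086 and the adjusted p 0.514, and DESeq2 gave an unadjusted p of 0.0058 and no adjusted p at these counts, so that over all genes tested Mir693 was not called. Counts this low over a hairpin in an rRNA-depleted long-RNA library cannot be told from reads of unspliced Xpo5 RNA, while Xpo5 itself differed by 0.031 on the log2 scale. Mir693 was singled out after its counts were seen. The 3′ end of Trmt2a overlaps that of Dgcr8 by 808 bases on the opposite strand, and Trmt2a, a tRNA methyltransferase, was at 1727 to 2284 counts in CM and 1351 to 1865 in CM/miR-126Δ/Δ mice (log2 fold change −0.14, SE 0.061, adjusted p = 0.748). Whether the counting used strand is not stated in the sources used here, so reads in that overlap cannot be told apart.

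Other genes of the pathway were taken from 6 lists. Of 105 genes fitted, 47 had a higher and 58 a lower estimate in CM/miR-126Δ/Δ mice, with a median log2 fold change of −0.018. No gene was called: 0 of 105 had an adjusted p under 0.05 in edgeR and in DESeq2. At an unadjusted p under 0.05, edgeR gave 8 (7.62%), a share near the 6.61% of all genes. DESeq2 gave 9 of 105, beside 1136 of all 18747 genes. The median was −0.076 for 16 cofactors and competitors of the Microprocessor (3 higher, 13 lower), −0.026 for 31 genes of the RAN cycle and the transport receptors (13 higher, 18 lower), −0.086 for 10 Dicer partners and RNA editing genes (3 and 7), 0.013 for 31 Argonaute, RISC and decay genes (17 and 14) and 0.035 for 14 genes of precursor tailing and turnover (10 and 4). The plot of the lists gives each gene as a point.

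By rule, genes of these lists with an unadjusted p of 0.01 or less were named, and there were 2. Ranbp1, which helps RAN hydrolyse its GTP in the cytoplasm, was at 122, 122, 110.3, 114 and 105 RPKM in CM and at 94.98, 98.2, 111, 102 and 101 RPKM in CM/miR-126Δ/Δ mice. Only CM/miR-126Δ/Δ mouse 3 reached into the CM range. The log2 fold change was −0.18 (SE 0.059, 95% interval −0.30 to −0.051), with an edgeR unadjusted p = 0.0092 and adjusted p = 0.661. Pa2g4 encodes EBP1, a growth-regulating protein that the study placed beside HDAC8. It was at 122, 116, 109.7, 121 and 107 RPKM in CM and at 101, 93.4, 109.8, 99.8 and 98.5 RPKM in CM/miR-126Δ/Δ mice, again with CM/miR-126Δ/Δ mouse 3 within the CM range (log2 fold change −0.20, SE 0.064, −0.33 to −0.060, edgeR adjusted p = 0.661, unadjusted 0.0079).

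Hdac8, the deacetylase itself, was given whatever its p. It was at 5.96, 5.49, 6.48, 6.11 and 5.60 RPKM in CM and at 5.80, 7.71, 6.755, 6.50 and 6.96 RPKM in CM/miR-126Δ/Δ mice, with means of 5.93 ± 0.401 and 6.75 ± 0.694 RPKM (log2 fold change 0.19, SE 0.091, −0.0098 to 0.38, adjusted p = 0.764). The third gene of that axis list, Mdm2, had a log2 fold change of −0.034. The remaining genes with an unadjusted p under 0.05 in edgeR were named after their values were seen. Srrt, which links the RNA cap to the Microprocessor, was at 62.2 to 73.2 RPKM in CM and 49.3 to 65.8 in CM/miR-126Δ/Δ mice, and Hspa8, a chaperone for Argonaute loading, at 121 to 168 and 112 to 127 RPKM. Of the silencing effectors, Ago4 (3.86 to 4.55 and 4.04 to 5.16 RPKM) and the exonuclease Xrn1 (11.7 to 13.4 and 12.2 to 15.9 RPKM) had higher estimates, and Fxr2 (25.6 to 28.4 and 20.7 to 25.9 RPKM) and the deadenylase Cnot8 lower ones. Cnot8 was the only gene of the 105 whose genotypes did not overlap, while 1.1% of all genes tested did not, so this is no more than the share over all genes. It was at 22.5 to 25.2 RPKM in CM and 21.3 to 22.1 RPKM in CM/miR-126Δ/Δ mice (log2 fold change −0.12, SE 0.050, adjusted p = 0.746). The widest estimates, Henmt1 at −0.92 and Lin28a at 0.86, came from genes at a mean of 0.028 and 0.112 RPKM and had adjusted p of 0.765 and 0.764.

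**Figure D5:**
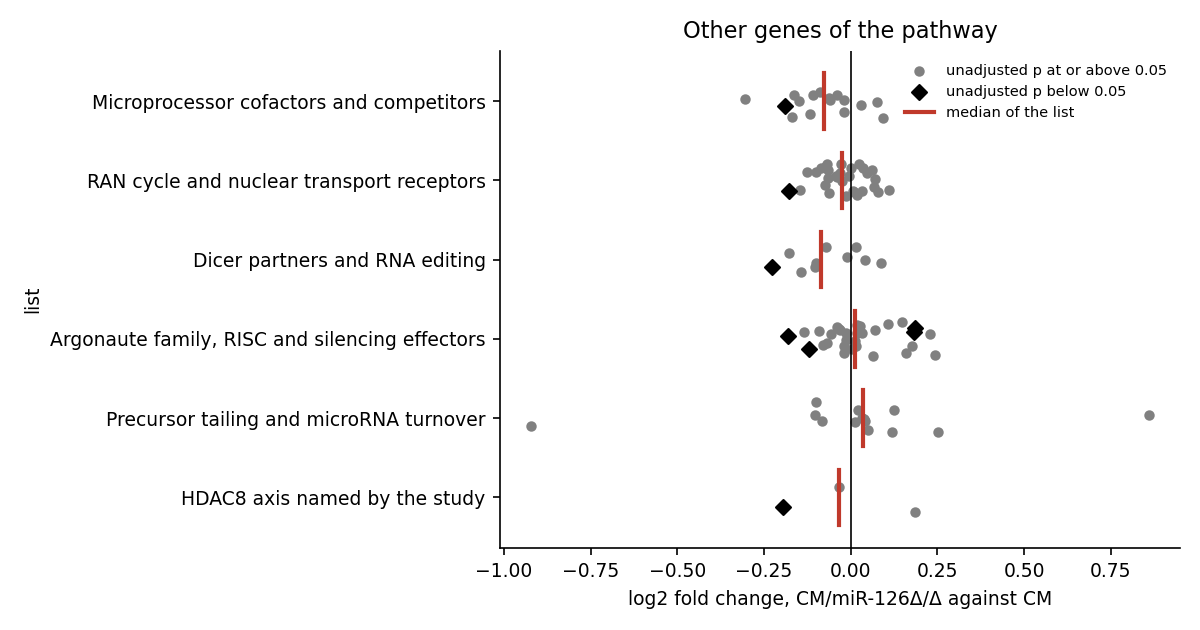
Log2 fold change (CM/miR-126Δ/Δ against CM) of the 105 other genes of the pathway in 6 lists, with diamonds for an unadjusted edgeR p under 0.05 and red lines for list medians. List medians lie between −0.086 and 0.035, and the points far to either side in the turnover list are Henmt1 and Lin28a, both near the limit of detection.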

How the data were processed

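RNA-seq of LSK cells from 10 mice was analysed, 1 library per mouse, grouped by the genotype in the sample labels. Members and gene lists were chosen with earlier results of these data known. The authors deposited raw counts per RefSeq gene, made with HTSeq count 0.6.1 from reads that Trimmomatic 0.38 and FASTP 0.19.4 had trimmed and Tophat 2.0.8 had placed on mm10 (columns of other samples: 0). A second deposited table, the same counts divided by a constant per library, was not used. Libraries were stranded and depleted of rRNA. Rn45s still took 14.8% to 22.6% of counts.

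Genes with at least 1 count (18747 of 25078) entered a model in edgeR 4.0.16 under R 4.3.3 (TMM, quasi-likelihood F-test in its legacy form, two-sided, genotype as the only term), with Benjamini-Hochberg adjustment over all of them. DESeq2 1.42.0 was an alternative. RPKM was obtained by dividing counts by exon length and by totals scaled with TMM factors, and 95% intervals from the log2 fold change and its SE. Scripts were tested on simulated data. Ratios were compared by exact permutation of mice and correlations by 100000 permutations (scipy 1.17.1). Genes of the wider lists were named at an unadjusted p of 0.01 or less (at most 10), plus Hdac8. Alternatives were other scalings and filters, a replicate block, DESeq2 and leaving out each mouse.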

Additional observations from a re-analysis of the deposited data

Results flagged for a closer look

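In 38 groups of 5 mice (members, ratios and library measures by genotype), 3 held a mouse far from the other 4 by Dixon's test, where 1.9 are expected by chance at its 5% level. Xpo5 was at 31.9 RPKM in CM mouse 1, with the other CM mice at 26.1 to 27.6 RPKM. Tarbp2 was at 3.50 RPKM in the same CM mouse 1, with the others at 2.90 to 3.06 RPKM. Ago1 was at 30.4 RPKM in CM/miR-126Δ/Δ mouse 4, with the others at 36.6 to 38.8 RPKM, and without that mouse its log2 fold change was 0.137 in place of 0.065.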

How the results depend on the processing

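No alternative brought a member past the study's cutoffs or an adjusted p of 0.05 (0 of 10 in each), and the lowest adjusted p of a member in any setting was 0.462. Scaling by DESeq2 size factors or by total counts moved the median log2 fold change of expressed genes by 0.0094 and −0.017 and turned the sign of 0 members. Leaving out each mouse in turn gave log2 fold changes of −0.046 to 0.053 for Drosha, 0.00061 to 0.083 for Dgcr8, 0.0073 to 0.097 for Xpo5, −0.168 to −0.070 for Ran, −0.152 to −0.058 for Rcc1, 0.032 to 0.117 for Dicer1, −0.169 to 0.017 for Tarbp2, 0.049 to 0.137 for Ago1, 0.057 to 0.186 for Ago2 and −0.080 to 0.012 for Tnrc6a. Log2 ratio differences ranged from −0.0080 to 0.103 for Dgcr8/Drosha, 0.104 to 0.208 for Xpo5/Ran, −0.015 to 0.024 for Rcc1/Ran, −0.318 to −0.047 for Tarbp2/Dicer1, −0.092 to 0.0051 for Ago1/Ago2 and −0.230 to −0.039 for Tnrc6a/Ago2. Drosha turned sign at 0.0033 with edgeR's own expression filter. Without both mice numbered 4, an alternative chosen after seeing the data, Drosha was at 0.046, Dgcr8/Drosha at −0.021 and Rcc1/Ran at −0.0091. Of the wider lists, 0 genes were called, and 8 passed an unadjusted p under 0.05. The cause of these shifts was not tested.

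Replicate numbers run from 1 to 5 in both genotypes. Same-numbered mice had correlated deviations of 0.221, 0.2205, 0.445, 0.341 and 0.062 over 13442 genes. Their mean was 0.258, beside −0.066 between mice of different numbers, and 3 of 5 correlated best with their own number. The sample labels do not say that the numbers pair the mice, so the main tests leave the number out. In the sample descriptions, however, the library numbers of same-numbered mice follow each other directly in every case. What this order reflects is not stated. Whether same-numbered mice share a source of variation was not tested, and values with the number included follow. With a replicate block, 115 genes in place of 54 passed the study's cutoffs and 20 in place of 2 an adjusted p of 0.05, with 0 members called. Ran then had an unadjusted p of 0.048 and an adjusted p of 0.553. It was the only member with an unadjusted p under 0.05 in that fit, beside 1666 of all 18747 genes. As paired differences, Xpo5 per Ran was higher in CM/miR-126Δ/Δ mice in 5 of 5 pairs (exact permutation test, p = 0.0625, the smallest that 5 pairs allow, not adjusted over the 6 ratios). The other ratios were higher in 2 or 3 of 5 pairs. Dicer1 was higher in 5 of 5, and the other members in 1 to 4 of 5. The share of all genes with 5 of 5 pairs in the same direction was not obtained, so these counts are not shown to be particular to the members. Beyond pairing, the counts over all genes ranged from 33 to 127 past the study's cutoffs when a mouse was left out, at 33 without CM/miR-126Δ/Δ mouse 5 and 127 without CM mouse 3. DESeq2 gave 64 and 45 in place of 54 and 2.

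Each genotype rests on 5 mice. Protein, nuclear export and mature microRNA were not measured in these libraries. Depth limits Tarbp2 (86 counts in the thinnest library) and the hairpins of Mir126a and Mir693.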
